A study of Mus musculus with 4 samples.

Results

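Splicing factors and heterogeneous nuclear ribonucleoproteins (hnRNPs) were followed in mouse embryonic stem cells in which Brg1 had been knocked down. They were taken as the probe sets with a single gene symbol that begins Srsf, Snrp (without Snrpn), Hnrnp, Sf3a, Sf3b or Prpf, each but Snrp and Hnrnp followed by a digit. This gave 137 of the 22690 probe sets on the array, for 53 of 12393 genes. The classes held 7 proteins of the small nuclear ribonucleoproteins (snRNPs), 9 of SF3A and SF3B, 10 PRPF proteins, 9 SR proteins and 18 hnRNPs.

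RNA was measured on 4 Affymetrix arrays. R1 cells, an established mouse embryonic stem cell line, carried a lentiviral short hairpin RNA (shRNA) against Brg1 on 2 arrays, and one against the glucose transporter GLUT4, given as the control, on the other 2. Both groups were infected and were harvested 67 h later, so no array shows uninfected cells. The labels do not give the sequences of the hairpins. The samples of a group are duplicate infections per the design text. The p-values rest on the spread between these duplicates, combined with that of other genes of similar signal.

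Introns are removed from a pre-mRNA by the spliceosome, which is built from snRNPs. Most of the snRNPs carry a ring of Sm proteins, and the U2 snRNP recognises the branch point of the intron through SF3A and SF3B. PRPF proteins act in the U4/U6.U5 tri-snRNP and in the catalytic complexes, SR proteins mostly promote the use of exons, and hnRNPs coat pre-mRNA and often oppose it. Brg1, encoded by Smarca4, is an ATPase that drives chromatin remodelling by the SWI/SNF complexes.

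The promoter windows of 4 genes are shown because these genes encode parts of the U2 snRNP that moved in opposite directions in the knockdown: Snrpa1, Snrpb2 and Sf3a1 were lower and Sf3a2 was higher. Each is the 250 bases before the start annotated by RefSeq (GRCm38.p6), 5′ to 3′ on the plus strand, where these genes lie. They are at chr7:66060086-66060335, chr2:143062819-143063068, chr11:4160104-4160353 and chr10:80798485-80798734 in the order printed. Capitals mark the 2 motifs that occur in them, the GC box GGGCGG and the ETS core CCGGAAG, each on either strand.
Snrpa1: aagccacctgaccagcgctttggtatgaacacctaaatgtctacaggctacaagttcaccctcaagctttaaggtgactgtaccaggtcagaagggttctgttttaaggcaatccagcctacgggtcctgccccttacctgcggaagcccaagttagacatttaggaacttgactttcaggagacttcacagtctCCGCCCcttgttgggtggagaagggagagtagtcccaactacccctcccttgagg
Snrpb2: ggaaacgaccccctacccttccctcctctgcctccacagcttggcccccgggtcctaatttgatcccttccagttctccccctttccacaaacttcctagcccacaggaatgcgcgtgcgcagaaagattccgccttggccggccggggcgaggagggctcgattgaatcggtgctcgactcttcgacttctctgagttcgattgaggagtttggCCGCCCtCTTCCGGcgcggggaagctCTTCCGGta
Sf3a1: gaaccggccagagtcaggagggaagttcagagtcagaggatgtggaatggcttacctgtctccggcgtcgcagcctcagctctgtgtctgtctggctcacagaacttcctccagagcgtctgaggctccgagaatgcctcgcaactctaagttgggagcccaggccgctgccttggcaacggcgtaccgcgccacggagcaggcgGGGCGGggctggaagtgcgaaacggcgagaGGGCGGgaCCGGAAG
Sf3a2: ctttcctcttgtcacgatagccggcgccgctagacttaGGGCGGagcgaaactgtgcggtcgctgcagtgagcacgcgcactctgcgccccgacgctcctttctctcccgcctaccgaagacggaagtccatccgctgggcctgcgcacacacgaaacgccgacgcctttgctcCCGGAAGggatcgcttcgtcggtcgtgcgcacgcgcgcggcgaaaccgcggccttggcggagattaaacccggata

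RefSeq windows were matched for 48 of the 53 genes, 64 windows in all. The ETS core was found in 32.8% of them, against 6.91% of all 32851 windows of the same length. The GC box was in 65.6% against 32.7%, the CCAAT box (CCAAT, either strand) in 48.4% against 33.8%, and the E-box CACGTG in 7.81% against 6.02%. TATAAA, on either strand, was in 6.25% against 12.4%, and the NRF1 motif in 1.56% against 0.782%. The windows of the splicing genes held a median of 20.5 CpG dinucleotides and all windows one of 6, and the part of base composition in these shares was not tested. Both motifs stood in the windows of the lower Snrpb2 and Sf3a1 and in that of the higher Sf3a2, and that of Snrpa1 held a GC box but no ETS core.

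Signals are array units on a linear scale, brought by the authors to 1 trimmed mean (200.1 on each array). Differences are knockdown minus control of log2(signal + 20), tested with limma over all 7815 genes at or above the filter of 23.9 units and called at a Benjamini-Hochberg adjusted p under 0.05. All 53 genes passed the filter, which uses the mean of all 4 arrays. Smarca4 fell to 652.1 and 621.5 units with the Brg1 hairpin, against 1186.6 and 1213.6 with the control hairpin (log2 difference -0.89 ± 0.08 SE; limma, adjusted p = 0.000232). Slc2a4, the control's target, lay below the filter on average. The 3′ to 5′ signal ratio of beta-actin, a measure of RNA integrity, was 1.36 and 1.31 in knockdown and 1.36 and 1.31 in control arrays.

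Of the 53 splicing genes, 8 fell, 2 rose and 43 did not pass the test. Over all tested genes 5.09% fell and 9.33% rose, 14.4% in all, while 15.1% of the splicing genes fell and 3.77% rose. Their median log2 difference was -0.14 and that of all tested genes 0.04, and 37 of the 53 (69.8%) lay below 0, where 44.6% of all tested genes did. The differences were small: every one of the 53 was under 0.6 on the log2 scale in size, and Hnrnph2 alone reached 1.5-fold. Over all tested genes 6.18% reached that fold without overlap of the groups, 4.57% higher and 1.61% lower. Between arrays of the 2 groups the SD of the 53 log2 differences was 0.19 to 0.28, against 0.15 within the knockdown pair and 0.14 within the control pair.

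The direction of the median depends on the scaling between arrays. It was -0.08 with quantile normalization, -0.19 with each array centred on its median and 0.17 with each array scaled to the spike-in transcripts added at hybridisation, where the median of all tested genes was 0.01, -0.01 and 0.35. Calls were 7 lower and 3 higher, 11 and 2, and 0 and 3 under these scalings. Without knockdown replicate 2, 1 gene was called lower and 1 higher, and without the intensity trend in limma's variance 2 were called lower and none higher. Of the 53 genes, 33 (62.3%) had groups that did not overlap, close to the 60.2% of all tested genes, with 27 lower and 6 higher in the knockdown against 25.9% and 34.3% of all tested genes.

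**Figure D1:**
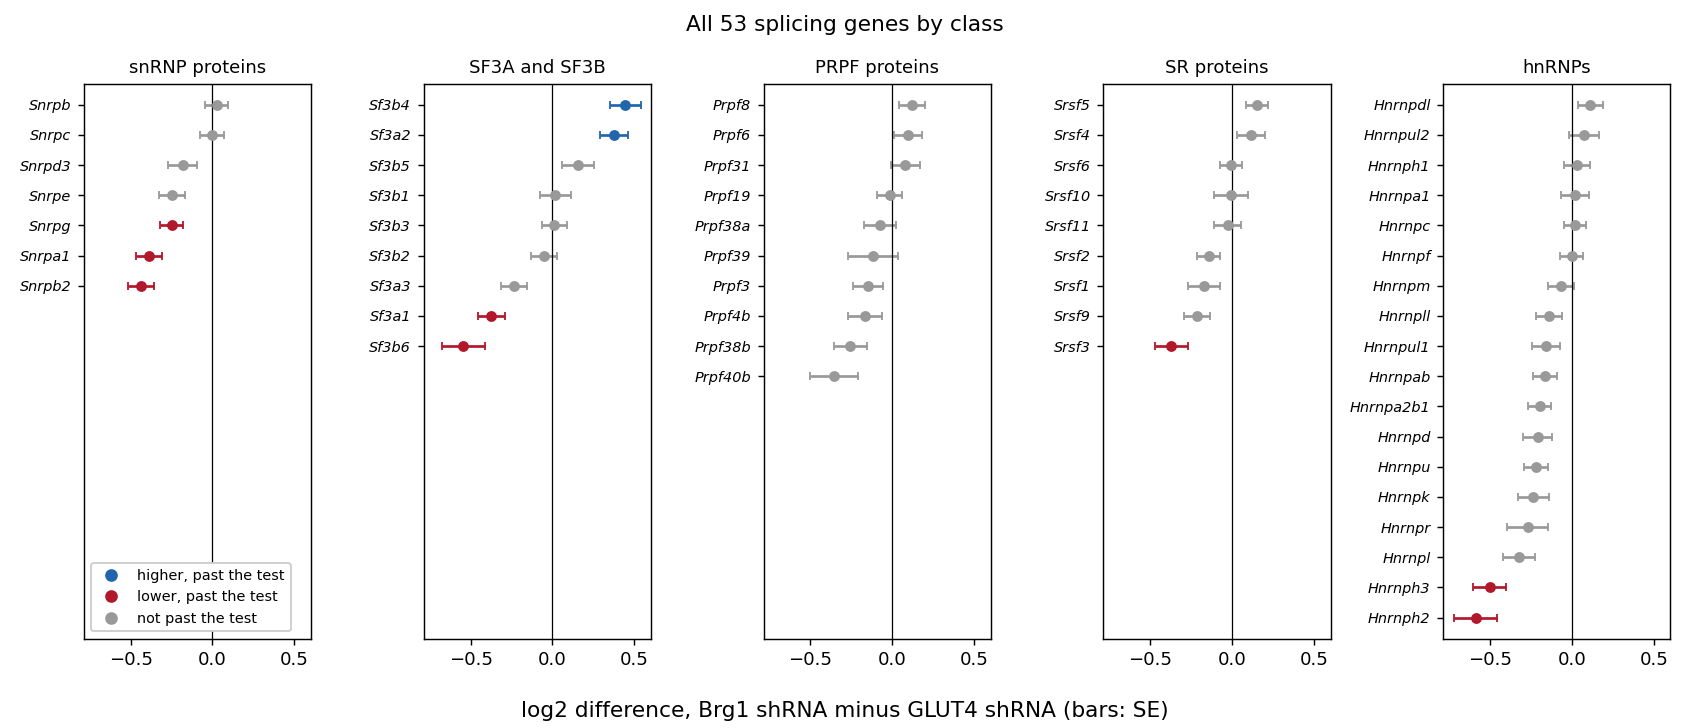
Log2 difference (knockdown minus control) of each of the 53 splicing genes on the horizontal axis, with its standard error, in 5 panels by class. Genes past the test in blue are higher (Sf3b4 and Sf3a2), genes past the test in red are lower (8 genes), and the other 43 are grey.

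Splicing genes lay mostly among bright probe sets. When the tested genes were split by mean signal into 4 bins of equal size, 45 of the 53 lay in the brightest bin, from 488 units upward. In that bin the median log2 difference was -0.02 for all 1954 genes and -0.05 for the 45 splicing genes, with 7.42% of all genes called lower and 6 of the 45. The next bin held 6 splicing genes, with medians of 0.05 for all its genes and -0.26 for these 6. There 5.53% of all genes were called lower, and 2 of the 6. Of all genes in the brightest bin 53.7% lay below 0. Signal level moved with the direction of change over all genes, and its part in the splicing genes' shift was not otherwise tested.

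**Figure D2:**
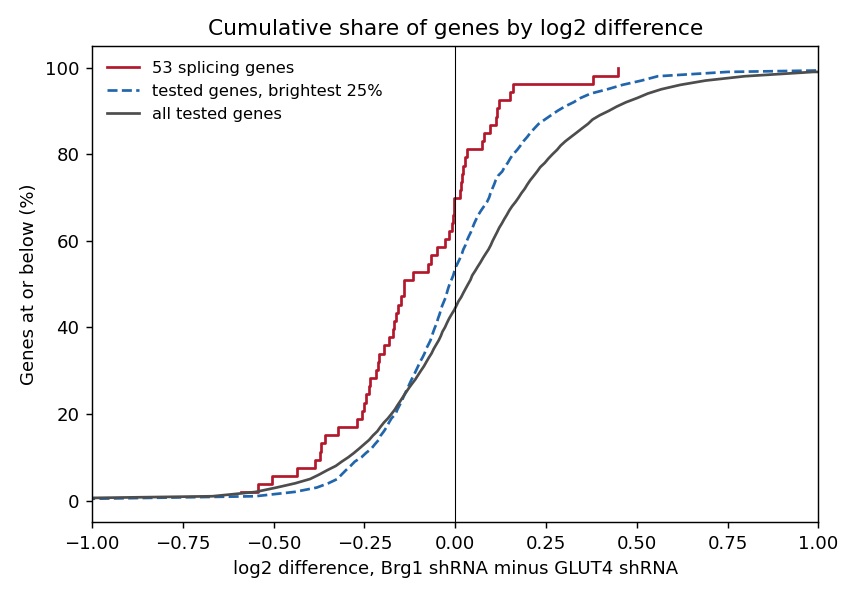
Cumulative percent of genes (vertical axis) by log2 difference, knockdown minus control (horizontal axis), for the 53 splicing genes, the brightest bin of tested genes and all tested genes. At 0 the curves stand at 69.8% for the splicing genes, 53.7% for the brightest bin and 44.6% for all tested genes, on the deposited scale.

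Some markers of embryonic stem cells and of other cell types passed the test as well, where 9.33% of all tested genes rose and 5.09% fell. Of 9 stem cell markers 2 rose and none fell, and their summed signals ran from 18549 to 19030 units in the knockdown, against 17658 to 17864 in the control. Of 13 fibroblast markers 3 reached the filter and 1 rose, with sums of 1378 to 1441 units against 724.0 to 775.1, and Col1a1, Col1a2 and Col3a1 lay below the filter. Of 9 trophectoderm markers 5 reached it and 3 rose, with sums of 1477 to 1582 against 903.5 to 964.0, while Cdx2 and Elf5 lay below. Primitive endoderm markers (7 of 12 tested, 2 higher and 1 lower) summed to 2453 to 2535 against 1769 to 1851, and Gata4, Gata6 and Sox17 lay below the filter. Neural markers (5 of 8 tested, 1 higher and 1 lower) summed to 1000.2 to 1128 against 965.1 to 998.5, with Sox1 below the filter. None of these markers was listed at 0. Their part in the splicing results was not tested, and in bulk RNA fewer cells of a type and less RNA per cell cannot be told apart.

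The snRNP proteins had the lowest class median, -0.25, with 3 of 7 genes lower, none higher and 4 not past the test. Snrpb2 and Snrpa1 encode the U2-specific proteins B″ and A′, which bind each other on U2 RNA. Snrpb2 had 780.9 and 725.8 units in the knockdown, against 1039.9 and 1013.1 in the control. It fell by 0.44 ± 0.08 on the log2 scale (SE, n = 2 each; limma, adjusted p = 0.00791). Its knockdown arrays both lay well below the control arrays, and it was the lower call that remained without knockdown replicate 2. With the mean of its 3 probe sets, of which 1 lay below the filter, its difference was -0.23 and the call was lost (limma, adjusted p = 0.140).

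Snrpa1 had 826.1 and 782.6 units in the knockdown and 1080.7 and 1033 in the control. The groups did not overlap, and the gene fell by 0.39 ± 0.08 (limma, adjusted p = 0.0127). The call was lost without knockdown replicate 2. Snrpg, an Sm ring protein, had 2792.6 and 2646.2 units against 3339.6 and 3137.2. It fell by 0.25 ± 0.07 (limma, adjusted p = 0.0401), the smallest of the 8 falls. Its difference was 0.06 with the spike-in scaling, and its call was lost without knockdown replicate 1, knockdown replicate 2 or control replicate 1.

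Snrpe and Snrpd3, also Sm proteins, had non-overlapping groups without passing the test. Snrpe had 2058.5 and 1804.5 units in the knockdown and 2285 and 2293.6 in the control (log2 difference -0.25 ± 0.08; limma, adjusted p = 0.0667). Snrpd3 differed by -0.18 ± 0.09 (adjusted p = 0.199). Snrpb, the Sm core protein B, and Snrpc, the U1-specific protein C, lay near 0, at 0.03 with a 95% interval of -0.13 to 0.19, and at 0.00 with one of -0.16 to 0.16.

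SF3A and SF3B moved both ways, with 2 of 9 genes lower, 2 higher and 5 not past the test, and a class median of 0.01. SF3A is a trimer that binds U2 together with SF3B, and SF3B holds the branch-point adenosine. Sf3b6, whose product p14 lies at the branch point, had 816.2 and 622.3 units in the knockdown, against 1151 and 954.2 in the control. It fell by 0.54 ± 0.13 (limma, adjusted p = 0.0249). Its 4 values were spread within each group, and the highest knockdown value was still below the lowest control value.

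Sf3a1, the SF3A subunit that contacts U1, had 726.9 and 720 units in the knockdown and 908 and 977.4 in the control. It fell by 0.37 ± 0.08 (limma, adjusted p = 0.017). Sf3a3, the third SF3A subunit, had a difference of -0.24 ± 0.08 and did not pass (adjusted p = 0.0751), with 947.3 and 992.3 units against 1185.6 and 1107.6.

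Both genes that rose encode partners of these proteins. Sf3b4, an RNA-binding subunit of SF3B, had 1364.1 and 1392.5 units in the knockdown, against 922 and 1095.6 in the control. It rose by 0.45 ± 0.09 (limma, adjusted p = 0.0125), and the 2 knockdown arrays stood close together above both control arrays. Sf3a2, a subunit of SF3A, had 1511.9 and 1543.4 units in the knockdown, against 1264.3 and 1084.2. It rose by 0.38 ± 0.09 (limma, adjusted p = 0.0211). With the spike-in scaling these 2 genes were still called higher. That scaling raised the differences of all genes alike, so it was no independent check of a rise. Both calls were lost without a filter and without the intensity trend. Without knockdown replicate 2 the calls of Sf3b6, Sf3a1 and Sf3a2 were lost, as were that of Sf3b6 without control replicate 1 and those of Sf3a1 and Sf3a2 without control replicate 2.

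The scaffold subunits of SF3B did not differ detectably. Sf3b1, the large subunit, had 1824.1 and 1882.7 units in the knockdown, against 2025 and 1656.5, and a log2 difference of 0.02 with a 95% interval of -0.20 to 0.23. Sf3b3 had 2107.4 and 2011.3 against 2138.5 and 1948.5, a difference of 0.01 with an interval of -0.16 to 0.18. Sf3b2 (-0.05) and Sf3b5 (0.16) had overlapping groups as well. The other probe sets of Sf3b2 were at 0.12, -0.14 and -0.40, each without overlap of the groups and none past the test. Among the 11 genes for the U2-specific proteins and SF3A and SF3B, a grouping made after the values were seen, 4 fell and 2 rose. Among the other 42 genes 4 fell and none rose, where 5.09% of all tested genes fell and 9.33% rose. As the grouping came from these values, the contrast is no test of it.

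**Figure D3:**
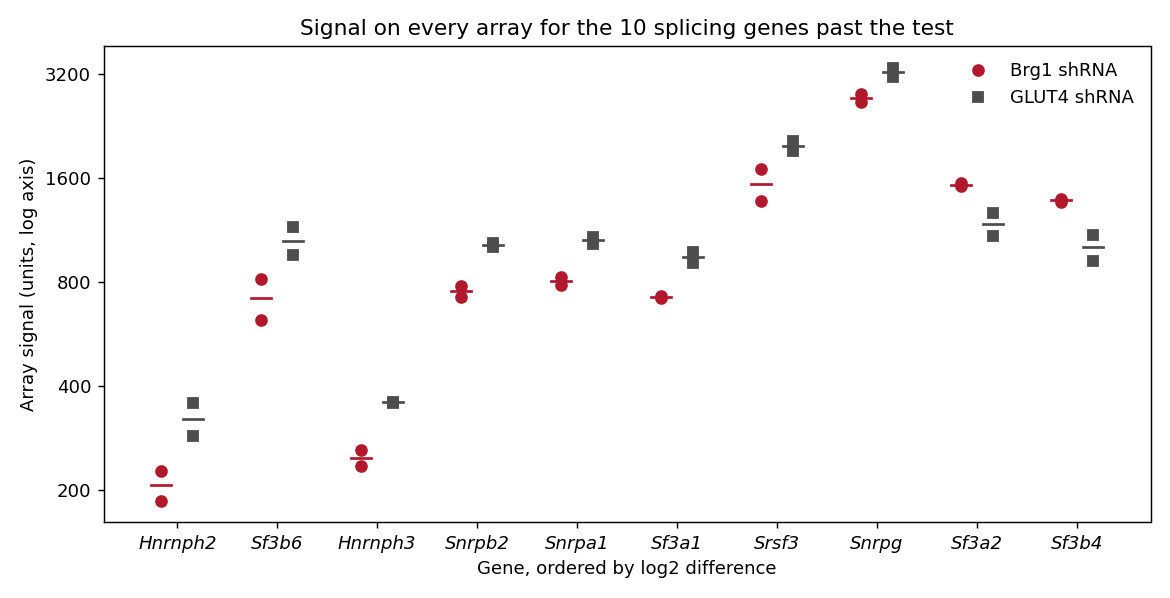
Signal on each array (vertical log axis, array units) of the 10 splicing genes past the test, with knockdown circles left of control squares and a line at each group's mean. Knockdown and control do not overlap in any of the 10, and Sf3a2 and Sf3b4 are the genes with the higher knockdown values.

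None of the 10 PRPF genes passed the test, and the class median was -0.10. Prpf8, the central scaffold of the spliceosome's active site, had 1958.6 and 1723.7 units in the knockdown, against 1654.6 and 1721.7 in the control. Its difference was 0.12 ± 0.08, with a 95% interval of -0.06 to 0.30 (limma, adjusted p = 0.343). Prpf19, a ubiquitin ligase and scaffold of the Prp19 complex, had 1215.5 and 1283.1 units against 1297.5 and 1229.5, a difference of -0.02 with an interval of -0.19 to 0.16.

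Among the tri-snRNP proteins Prpf3, Prpf31 and Prpf6, differences were -0.15, 0.08 and 0.10 (limma, adjusted p = 0.296, 0.575 and 0.469). The kinase Prpf4b differed by -0.17 and the B-complex protein Prpf38a by -0.07. Prpf40b, a relative of a yeast U1 factor, had the largest difference of the class, -0.36 ± 0.15 (adjusted p = 0.128), with 98.7 and 77.5 units in the knockdown and 108.9 and 127.5 in the control. Its signals were low and its standard error was among the widest of the class, next to that of Prpf39 (-0.12 ± 0.16).

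Of the 9 SR protein genes Srsf3 fell, none rose and 8 did not pass the test, with a class median of -0.03. Srsf3 encodes the smallest SR protein, which also helps to export mRNA and controls its own splicing. It had 1703.4 and 1370 units in the knockdown, against 2050.7 and 1915.1 in the control, and fell by 0.37 ± 0.10 (limma, adjusted p = 0.0386). The call did not remain with quantile normalization, the spike-in scaling, the mean of its probe sets other than _x_at, no filter or no intensity trend. It was also lost without knockdown replicate 2 or control replicate 1.

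Srsf5 had 2696.4 and 2672.3 units in the knockdown, against 2466.1 and 2365.2, a difference of 0.15 ± 0.07 that did not pass (adjusted p = 0.152). It was called higher with quantile normalization and with the spike-in scaling. Srsf2, which binds exonic enhancers, had 2412.5 and 2250.6 units against 2510.4 and 2637.9, a difference of -0.14 ± 0.07 (adjusted p = 0.204). Srsf1, the founding SR protein, differed by -0.17 ± 0.10, Srsf9 by -0.21 ± 0.08 and Srsf4 by 0.12 ± 0.09, with adjusted p between 0.104 and 0.393. Srsf6, Srsf10 and Srsf11 lay within 0.03 of 0. For Srsf10 this depends on the probe set, as its others were at -0.41, -0.06 and 0.16, none past the test.

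The hnRNPs had a class median of -0.16, and 13 of 18 lay below 0. Of the 18, 2 fell, none rose and 16 did not pass the test. The 2 that fell are both of the hnRNP H family, whose proteins bind runs of G. Hnrnph2 had 226.9 and 186.2 units in the knockdown, against 286 and 356.8 in the control, and fell by 0.59 ± 0.13 (limma, adjusted p = 0.0196). Hnrnph3 had 260.1 and 234.3 units in the knockdown, against 357.5 and 359.6, and fell by 0.50 ± 0.10 (adjusted p = 0.0111). Without knockdown replicate 2 both calls were lost, and without control replicate 2 that of Hnrnph2. Of the other genes of that family, Hnrnph1 was at 0.03 (95% interval -0.15 to 0.21) and Hnrnpf at 0.00 (-0.16 to 0.16). The value of Hnrnpf depends on the probe set: its other 3 were at -0.27, -0.23 and -0.06, none past the test. Those at -0.27 and -0.06 are _x_at probe sets, and the mean without them was -0.12 (limma, adjusted p = 0.240).

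Several abundant hnRNPs had non-overlapping groups and differences of about -0.2 without passing. Hnrnpl, which binds CA repeats, came closest, at -0.32 ± 0.10 (limma, adjusted p = 0.0528), with 1484 and 1240.5 units against 1617.6 and 1789.7. It was called lower with each array centred on its median, with the replicate block, and without knockdown replicate 1 or control replicate 1. Hnrnpu, a nuclear scaffold protein, differed by -0.22 ± 0.07, Hnrnpk, which binds C-rich RNA, by -0.24 ± 0.09, and Hnrnpa2b1 by -0.20 ± 0.07 (adjusted p between 0.0799 and 0.118).

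Hnrnpab had 3619.2 and 3290.4 units in the knockdown, against 4013.4 and 3728.9, a difference of -0.16 ± 0.07 (limma, adjusted p = 0.158). Hnrnpc, a core protein of hnRNP particles, had 3642.6 and 3568.4 against 3697.5 and 3432.1, a difference of 0.02 ± 0.07 (adjusted p = 0.886). Hnrnpa1, a classic antagonist of SR proteins, differed by 0.02 with a 95% interval of -0.17 to 0.21. The positive differences of the class, from 0.02 in Hnrnpc to 0.11 in Hnrnpdl, all had overlapping groups. Of the Hnrnpdl probe sets above the filter 4 were negative and 2 positive, from -0.20 to 0.11. Those of Hnrnpab split likewise, from -0.30 to 0.19, and none of either gene passed the test.

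Most of these genes have several probe sets, which bind different parts of the transcripts. Of the 137 probe sets 131 reached the filter, and 35 genes had more than 1 there. Tested one by one with limma, 10 of the 131 were called lower and 2 higher, in 8 and 2 genes, where 3.36% and 5.9% of all 12543 probe sets were. The 8 genes were not the same as the 8 above: Snrpg was not among them (adjusted p = 0.0605) and Hnrnpa2b1 was, through an _x_at probe set at -0.46 (adjusted p = 0.0257). Srsf3 was called through an _x_at probe set too, at -0.68 (limma, adjusted p = 0.0356), with 453.2 and 661.6 units in the knockdown. The probe set used for Srsf3 did not pass here (adjusted p = 0.0616). All 3 probe sets of Snrpa1 were called lower, with differences of -0.39, -0.47 and -0.52. Both probe sets above the filter were negative in Snrpb2 (-0.44 and -0.33), Sf3a1 (-0.37 and -0.10) and Snrpg (-0.25 and -0.09), and both were positive in Sf3a2 (0.38 and 0.23) and Sf3b4 (0.45 and 0.12). With the mean of their probe sets the calls of Sf3a1 (-0.24) and Snrpg (-0.17) were lost (limma, adjusted p = 0.138 and 0.141). Sf3b6 had 3 negative ones, at -0.54, -0.37 and -0.17, and Hnrnph2 and Hnrnph3 have 1 probe set each.

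Srsf3 had 4 negative probe sets, from -0.68 to -0.30, and 2 positive ones, at 0.02 and 0.13. The probe set at 0.13 had 253.3 and 274.5 units in the knockdown, against 240.7 and 238.5 in the control. Whether the probe sets of a gene differ in their response was tested with limma's diffSplice over 2769 genes with 2 or more probe sets. No gene passed after adjustment, and 300 (10.8%) had an unadjusted p under 0.05. Of 32 splicing genes in that test 4 did: Prpf38b, Srsf3, Snrpd3 and Srsf10, with diffSplice adjusted p between 0.351 and 0.419. Prpf38b had 1 probe set at -0.26 and the other at 0.29, and Snrpd3 had 1 at -0.18 and the other at 0.21, so the direction for these genes depends on which is read. The Snrpd3 probe set at 0.21 was dim, with means of 48.8 units in the knockdown and 39.3 in the control. The one at -0.18 had means of 844.7 and 962.95 units.

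**Figure D4:**
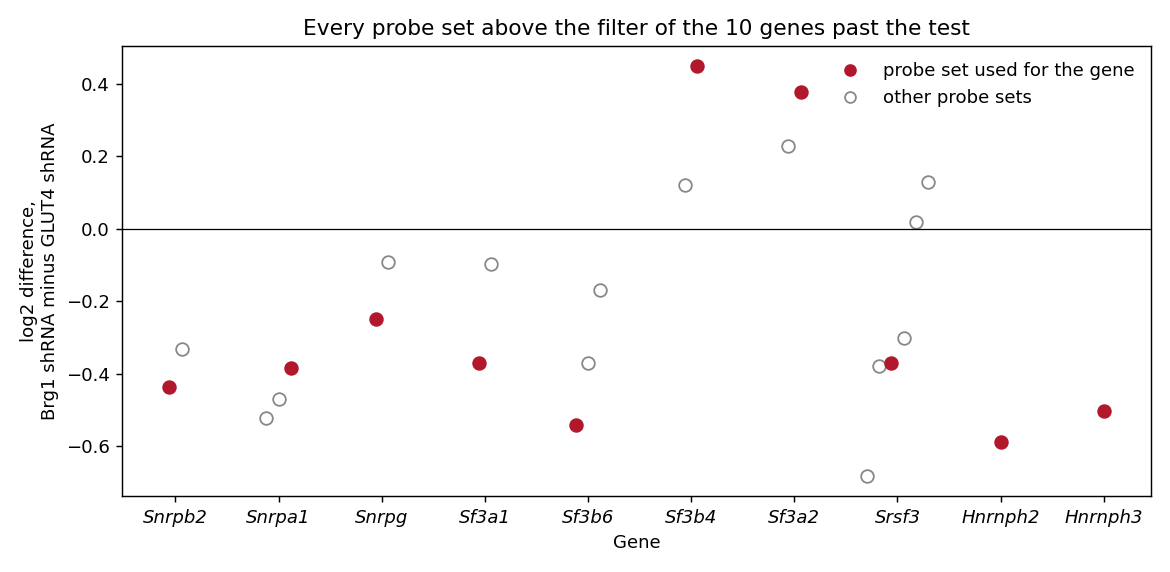
Log2 difference (vertical axis, knockdown minus control) of every probe set above the filter for the 10 genes past the test, with the probe set used for the gene filled. All points of a gene lie on 1 side of 0 except in Srsf3, where 4 are negative and 2 positive.

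Splicing genes outside the naming rule were read from 7 lists, of which 133 genes were tested. In all, 9 rose, 7 fell and 117 did not pass, or 12% called, near the 14.4% of all tested genes, and the median was -0.06. The Prp19 complex and catalytic-step factors had 4 rises and 1 fall in 25 genes (median 0.03). Bud13, of the RES complex, had 260.1 and 261.1 units in the knockdown, against 169.5 and 176.2 in the control, and rose by 0.54 ± 0.10 (limma, adjusted p = 0.00925). Tfip11, which helps to take the spliceosome apart, rose by 0.58 ± 0.11, with 213.3 and 234.9 units against 139.3 and 147.8 (adjusted p = 0.00995). The splicing factor Slu7 (0.59 ± 0.12) and the helicase Dhx16 (0.34 ± 0.08) also rose (adjusted p = 0.0107 and 0.0196). The call of Slu7 was lost without knockdown replicate 2 and with the mean of its probe sets (0.11; limma, adjusted p = 0.575), and that of Dhx16 without knockdown replicate 1 or control replicate 1.

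Of 9 exon junction complex and export genes 2 fell and 1 rose (median -0.17). Rbm8a, which encodes the core protein Y14, had 2110.4 and 2087.4 units in the knockdown, against 3003.3 and 2456.8, and fell by 0.37 ± 0.09 (limma, adjusted p = 0.0284). The export adaptor Alyref fell by 0.31 ± 0.08, a difference of 0.00 with the spike-in scaling, and Casc3, another core protein of the complex, rose by 0.34 ± 0.09 (adjusted p = 0.0385 and 0.0413). Leaving out any single array ended the call of Casc3. The calls of Rbm8a and Alyref were lost without knockdown replicate 2 or control replicate 1, and that of Alyref also without control replicate 2. That of Rbm8a was lost too with the mean of its probe sets (-0.25) and with the spike-in scaling (-0.06).

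Among 36 other RNA-binding regulators of splicing 3 rose and 3 fell (median -0.18). Mbnl1, whose protein turns embryonic splicing patterns to adult ones, had 197.1 and 214.2 units in the knockdown, against 125.7 and 115 in the control, and rose by 0.69 ± 0.12 (limma, adjusted p = 0.00544). Fubp1 fell by 0.55 ± 0.08, with 703.3 and 664.1 units against 1028 and 988 (adjusted p = 0.00282). That call was lost with the mean of its probe sets (-0.29, adjusted p = 0.0948) and with the spike-in scaling (-0.24, adjusted p = 0.389). Elavl2, a Hu family protein, fell by 0.54 ± 0.11, and Esrp2, an epithelial splicing regulator, rose by 0.57 ± 0.15 (adjusted p = 0.0125 and 0.0307). The call of Elavl2 was lost without knockdown replicate 2, and that of Esrp2 without knockdown replicate 1 or control replicate 1. Both were lost with the mean of their probe sets, at -0.24 for Elavl2 and 0.27 for Esrp2 (limma, adjusted p = 0.191 and 0.323), and that of Elavl2 also with the spike-in scaling (-0.23).

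The remaining lists held few calls. Of 21 LSm and other snRNP genes the tri-snRNP gene Txnl4a rose (0.31 ± 0.08; limma, adjusted p = 0.0344) and none fell. Of 15 genes for branch-site and 3′ splice site recognition U2surp fell (-0.28 ± 0.08; adjusted p = 0.0446) and none rose, and its difference was 0.03 with the spike-in scaling. The call of U2surp was lost without any 1 of the arrays, and that of Txnl4a without either knockdown array or control replicate 2, and with the mean of its probe sets (0.25). No gene passed among 15 SR-related proteins and SR protein kinases or among 12 genes for the SMN complex and Sm ring assembly. There the smallest adjusted p were 0.142 for Tra2a (-0.27) and 0.0507 for Clns1a (-0.29), a chaperone of Sm proteins.

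**Figure D5:**
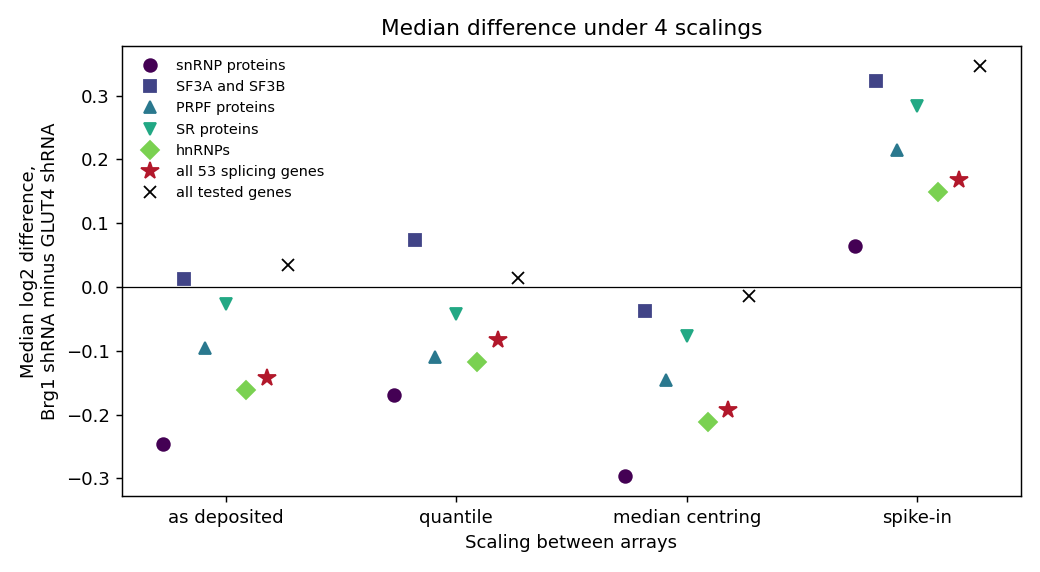
Median log2 difference (vertical axis, knockdown minus control) of the 5 classes, all 53 splicing genes and all tested genes under 4 scalings between arrays (horizontal axis). The snRNP median is the lowest under each scaling, from -0.30 with median centring to 0.06 with spike-ins. The median of the 53 genes lies below that of all tested genes under all 4 but changes sign with the spike-in scaling. Median centring and spike-in scaling shift all genes alike, so only quantile normalization could change the order of the medians. The gap between the 53 genes and all tested genes is -0.18 as deposited and -0.10 with quantile normalization.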

How the data were processed

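The authors deposited a linear intensity for every probe set on each array, made with the Affymetrix software GCOS, per the submitters' processing notes. The version and algorithm of GCOS and its scaling target are not stated in the labels. The mean with 2% of probe sets left out at each end was equal on all 4 arrays, so they were not normalized further. Detection calls were not used here. Probe sets were named through the platform annotation. Symbols were updated by Entrez ID through RefSeq (GRCm38.p6), which held 20351 of 20380 probe sets with 1 gene and all 137 of the splicing genes.

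Signals were analysed as log2(signal + 20), which understates changes of dim genes. For each gene the probe set with the highest mean was used, and _x_at probe sets only where a gene had no other. Where the mean of a gene's probe sets was taken, _x_at probe sets were left out in the same way. Genes whose mean reached the 40th percentile of probe sets were tested with limma (version 3.58.1, R 4.3.3; lmFit, eBayes with an intensity trend, two-sided, no covariates), with Benjamini-Hochberg adjustment over 7815 genes. Data were simulated for this comparison (7815 genes) with independent normal noise and no changes but those set. There the test found 50 of 100 genes changed by 0.4 and 95 of 100 changed by 0.8 on the log2 scale. False calls numbered 10. The measured arrays had 1127 calls, and noise shared between genes was not simulated, so these shares may not hold for them. The number of arrays limits the precision.

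Values on each array are given for the splicing genes past the test and for the pair with the highest mean signal in each class. Those of Sf3a3, Prpf40b and Hnrnpl, and of 1 further probe set of Srsf3, are also given and were chosen after their values were seen. From each of the 7 lists the genes with the smallest p, at most 4, could be named. Genes and lists were chosen with earlier results of these data known. The alternatives changed the pseudocount, filter, normalization, variance model, probe set choice, gene symbols, threshold and replicate block, and left out each array. Whether replicate numbers pair arrays across the groups is not known. Differences between replicates 1 and 2 correlated at -0.14 between the groups over tested genes. The beta-actin ratios given above ordered alike by replicate number in both groups, and the same ratios of Gapdh did not.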

Additional observations from a re-analysis of the deposited data

How the results depend on the processing

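Each call of the 8 lower and 2 higher splicing genes was lost under at least 2 of 15 alternatives, and Snrpb2, Hnrnph3 and Sf3b4 kept theirs under 13. The counts lower and higher were 4 and 0 without a filter (433 of all genes called), 2 and 0 without the intensity trend, 1 and 0 at an adjusted p under 0.01 (393 of all genes), and 1 and 0 for 1.5-fold with no overlap and no test (483 of all genes). With the spike-in scaling none was lower and 3 were higher, with 1445 of all genes higher and 21 lower, against 729 and 398 as deposited and 622 and 598 with median centring. There Snrpg was at 0.0605, U2surp at 0.0336 and Alyref at 0.0024 on the log2 scale. Leaving out each array gave 1 to 11 lower and 1 to 2 higher splicing genes, and 601 to 1171 of all genes, with 601 without knockdown replicate 2 and 719 without control replicate 1. Without knockdown replicate 2, Snrpb2 and Sf3b4 were the splicing genes still called, and without control replicate 2 Sf3b4 alone was still higher. The replicate block gave 9 lower and 2 higher, 1187 in all, and a crossed block, added after seeing the data, 11, 2 and 1478. The pseudocounts, the stricter filter and updated symbols gave 8 and 2. Single probe sets gave 8 and 2 genes, with Hnrnpa2b1 in place of Snrpg. The mean of each gene's probe sets, without _x_at ones where it had others, gave 6 and 2. Of the 8 lower calls 4 were kept, and those of Sf3a1, Snrpb2, Snrpg and Srsf3 were lost. Hnrnpl, which has 1 probe set and the same difference, and Sf3a3 were added. No gene had probe sets that differed by diffSplice as deposited, or with any array left out, but 5 did with the larger pseudocount, 2 without a filter, 4 with the stricter filter and 3 with _x_at probe sets, none of them a splicing gene of the 53. Smarca4 was called lower under all 15 (-0.94 to -0.58). The cause of these changes was not tested. With 2 arrays a group, where 1 is left out the lone array is assumed to vary like the other group.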
